A study of Mus musculus with 11 samples.

Results

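Red cell transcripts were followed in RNA of sorted lung alveolar macrophages from newborn mice. They comprise 6 genes, the alpha-globin genes Hba-a1 and Hba-a2, the beta-globin genes Hbb-bs and Hbb-bt, the haem enzyme gene Alas2 and the membrane protein gene Slc4a1. The genes were chosen by name as erythroid genes, and all 6 were found among the 57180 Ensembl identifiers of the count table. The cells came from C57BL/6 WT pups and were sorted by flow cytometry from lung homogenates on postnatal day 7. Exposed pups had breathed 95% oxygen from postnatal day 1 to day 5, and all groups share the strain, the age and the sort. The libraries are named by oxygen (H for hyperoxia, N for normoxia), sex (M or F) and replicate number. They comprise hyperoxia males HM2 and HM3, hyperoxia females HF1 to HF3, normoxia males NM1 to NM3 and normoxia females NF1 to NF3. Nothing in the labels ties a replicate to 1 animal or to a pool, and the spread that the p-values measure is that of these libraries and may be technical.

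Haemoglobin, the oxygen carrier of red cells, is built of alpha-globin and beta-globin chains, each holding a haem group. Red cell precursors make haem by a pathway whose first, rate-limiting step is catalysed in them by the enzyme Alas2, while other cells use Alas1. Globin mRNA is among the most abundant RNAs of the late precursors, and young red cells that have lost their nucleus still hold it. Alveolar macrophages are phagocytes of the air spaces, and which cells the red cell transcripts came from was not tested.

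The globin pairs are near-identical in coding sequence, which limits how reads from the coding part can be assigned to single genes. The untranslated parts of the transcripts were not compared. Over the 426 coding bases compared, Hba-a1 and Hba-a2 differ at 1 position, and over 441 coding bases Hbb-bs and Hbb-bt also differ at 1 position. The longest identical coding runs are 380 bases for the alpha pair and 416 bases for the beta pair. The coding stretches around these positions, taken from GENCODE M21 transcripts (GRCm38), are shown because they hold the sole coding base that separates each pair, with that base in capitals. Positions count from 1 at the first base of the start codon, and the substitutions are C381T for Hba-a1 to Hba-a2 and C417T for Hbb-bs to Hbb-bt.
Hba-a1: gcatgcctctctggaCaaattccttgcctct
Hba-a2: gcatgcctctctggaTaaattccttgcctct
Hbb-bs: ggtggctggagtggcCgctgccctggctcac
Hbb-bt: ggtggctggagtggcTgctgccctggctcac
The windows span coding positions 366 to 396 in the alpha pair and 402 to 432 in the beta pair. How the deposited counts assigned reads that match both genes of a pair is not given in the sources used here. The sum of each pair is therefore given beside the single genes.

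Promoters are shown because the 6 transcripts went up and down together over the libraries, as described further on. The sequences are the 250 bases before the annotated start, from RefSeq on GRCm38.p6, which is not the build of the counts (mm39). Entries were matched by symbol for 5 of the 6 genes, and Slc4a1 is named only. Capitals mark matches on either strand of 4 motifs. The letters GATAA are those bound by GATA factors of erythroid cells. The letters CACCC are those of the erythroid element bound by Klf1. The letters CCAAT and, nearer the start, TATAA are those of general promoter boxes. Matches may overlap each other.
Hba-a1: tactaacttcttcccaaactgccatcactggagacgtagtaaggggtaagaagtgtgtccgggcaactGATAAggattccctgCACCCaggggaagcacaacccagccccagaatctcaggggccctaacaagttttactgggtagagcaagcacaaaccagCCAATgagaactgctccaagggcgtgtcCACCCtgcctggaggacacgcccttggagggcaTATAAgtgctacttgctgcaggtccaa
Hbb-bs: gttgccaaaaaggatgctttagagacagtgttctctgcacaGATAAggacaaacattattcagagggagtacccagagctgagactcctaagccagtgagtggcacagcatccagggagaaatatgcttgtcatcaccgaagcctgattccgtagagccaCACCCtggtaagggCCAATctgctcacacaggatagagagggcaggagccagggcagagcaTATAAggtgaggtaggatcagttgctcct
Hbb-bt: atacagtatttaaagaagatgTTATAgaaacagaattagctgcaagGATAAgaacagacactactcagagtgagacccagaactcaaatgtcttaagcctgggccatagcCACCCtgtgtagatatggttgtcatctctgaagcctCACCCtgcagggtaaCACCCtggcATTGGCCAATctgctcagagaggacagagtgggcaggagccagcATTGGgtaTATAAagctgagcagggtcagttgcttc
Alas2: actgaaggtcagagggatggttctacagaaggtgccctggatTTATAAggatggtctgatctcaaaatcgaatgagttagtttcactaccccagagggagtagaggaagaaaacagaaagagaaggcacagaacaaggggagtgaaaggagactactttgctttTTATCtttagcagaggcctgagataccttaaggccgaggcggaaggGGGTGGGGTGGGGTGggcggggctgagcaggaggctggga
They lie at chr11:32283422-32283671 on the plus strand, chr7:103827929-103828178 and chr7:103813924-103814173 on the minus strand, and chrX:150547167-150547416 on the plus strand. The Hba-a2 window at chr11:32296242-32296491 on the plus strand matched that of Hba-a1 in 247 of 247 aligned bases and is not repeated. The Hbb-bs and Hbb-bt windows matched in 178 of 243 aligned bases. GATAA was present in all 5 windows and CACCC in all 5, against 22.6% and 52.0% of 32851 promoter windows of the same length. CCAAT was present in the 4 globin windows and not in that of Alas2, against 33.8% of all windows. TATAA was present in all 5, against 22.8%. In each globin window a TATAA began between -30 and -27 relative to the start, and in Alas2 it began at -207. The 5 windows are not independent, since those of each globin pair share much or all of their aligned sequence. These are matches of letters and say nothing of binding, and any part of the promoters in the shared variation was not tested.

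Total counts ran from 18087948 to 32579468 per library, and 19948 genes passed the expression filter. Levels are given in CPM, counts per 1000000 of the library size after scaling, and 3 counts, the floor used here, were worth 0.0880 to 0.160 CPM. The 12 markers of alveolar macrophages were detected in every library and summed to 5420 to 7050 CPM in hyperoxia and 5362 to 8101 CPM in normoxia. The 4 globin genes summed to 48.1 CPM in HM2 and 288 CPM in HM3, and to 173, 116 and 240 CPM in HF1 to HF3. In normoxia they summed to 1149, 96.7 and 503 CPM in NM1 to NM3 and to 99.6, 96.9 and 715 CPM in NF1 to NF3. Thus NM1, NF3 and NM3 carried the most globin RNA, HM3 and HF3 came next, and HM2 carried the least. The sum took 0.00485% to 0.0288% of all counts in hyperoxia and 0.00867% to 0.0998% in normoxia. From the lowest library to the highest it varied 23.9-fold, while total counts varied 1.80-fold. In bulk RNA, fewer cells of a type and less RNA per cell cannot be told apart.

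Among the alpha-globin genes, Hba-a2 had the higher level. It had 505 counts in HM2 and 3218 in HM3, and 2613, 1791 and 2941 in HF1 to HF3, against 8636, 1007 and 4155 in NM1 to NM3 and 1347, 1175 and 6784 in NF1 to NF3. As CPM these were 19.9 and 120 in hyperoxia males and 86.7, 52.5 and 101 in hyperoxia females, against 461, 42.0 and 214 in normoxia males and 42.8, 41.8 and 292 in normoxia females. In normoxia males the libraries were far apart, while in normoxia females NF1 and NF2 were close together and NF3 far above them. Both hyperoxia groups lay inside the normoxia span except for HM2 below it. Hba-a1 had 175 and 1390 counts in HM2 and HM3 and 596, 697 and 1015 in HF1 to HF3, against 3459, 299 and 1936 in NM1 to NM3 and 414, 465 and 2586 in NF1 to NF3. In CPM, Hba-a1 stood at 6.90 and 52.0 in hyperoxia males and 19.8, 20.5 and 34.8 in hyperoxia females, against 185, 12.5 and 99.9 in normoxia males and 13.2, 16.5 and 112 in normoxia females. NM1, NF3 and NM3 were again the highest and HM2 the lowest, and the oxygen groups overlapped in each sex.

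The beta-globin genes gave the same order of libraries at the top. Hbb-bs had 445 and 2306 counts in HM2 and HM3 and 1432, 1020 and 2379 in HF1 to HF3, against 7137, 807 and 2871 in NM1 to NM3 and 979, 862 and 5531 in NF1 to NF3. Its CPM were 17.5 and 86.3 in hyperoxia males and 47.5, 29.9 and 81.7 in hyperoxia females, against 381, 33.6 and 148 in normoxia males and 31.1, 30.7 and 238 in normoxia females. HF3 and HM3 lay close together, above NF1, NF2 and NM2. Hbb-bt had 95 and 773 counts in HM2 and HM3 and 568, 457 and 662 in HF1 to HF3, against 2295, 208 and 788 in NM1 to NM3 and 390, 223 and 1679 in NF1 to NF3. Its CPM were 3.74 and 28.9 in hyperoxia males and 18.8, 13.4 and 22.7 in hyperoxia females, against 123, 8.67 and 40.7 in normoxia males and 12.4, 7.93 and 72.4 in normoxia females. All 3 hyperoxia female libraries stood above NF1 and NF2 and below NF3 for Hbb-bt.

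Alas2 had 103 and 374 counts in HM2 and HM3 and 197, 146 and 324 in HF1 to HF3, against 941, 96 and 598 in NM1 to NM3 and 152, 109 and 735 in NF1 to NF3. This was 4.06 and 13.99 CPM in hyperoxia males and 6.53, 4.28 and 11.1 CPM in hyperoxia females, against 50.2, 4.0 and 30.9 CPM in normoxia males and 4.84, 3.88 and 31.7 CPM in normoxia females. The lowest library was NF2, with HM2, NM2 and HF2 close above it. Slc4a1 encodes band 3, the anion exchanger of the red cell membrane, and was the least abundant of the genes. It had 44 and 155 counts in HM2 and HM3 and 88, 53 and 86 in HF1 to HF3, against 324, 14 and 199 in NM1 to NM3 and 41, 54 and 265 in NF1 to NF3. This was 1.73 and 5.80 CPM in hyperoxia males and 2.92, 1.56 and 2.95 CPM in hyperoxia females, against 17.3, 0.583 and 10.3 CPM in normoxia males and 1.30, 1.92 and 11.4 CPM in normoxia females. NM1 was the highest library for each of the 6 genes, followed by NF3 and NM3 and then HM3.

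**Figure D1:**
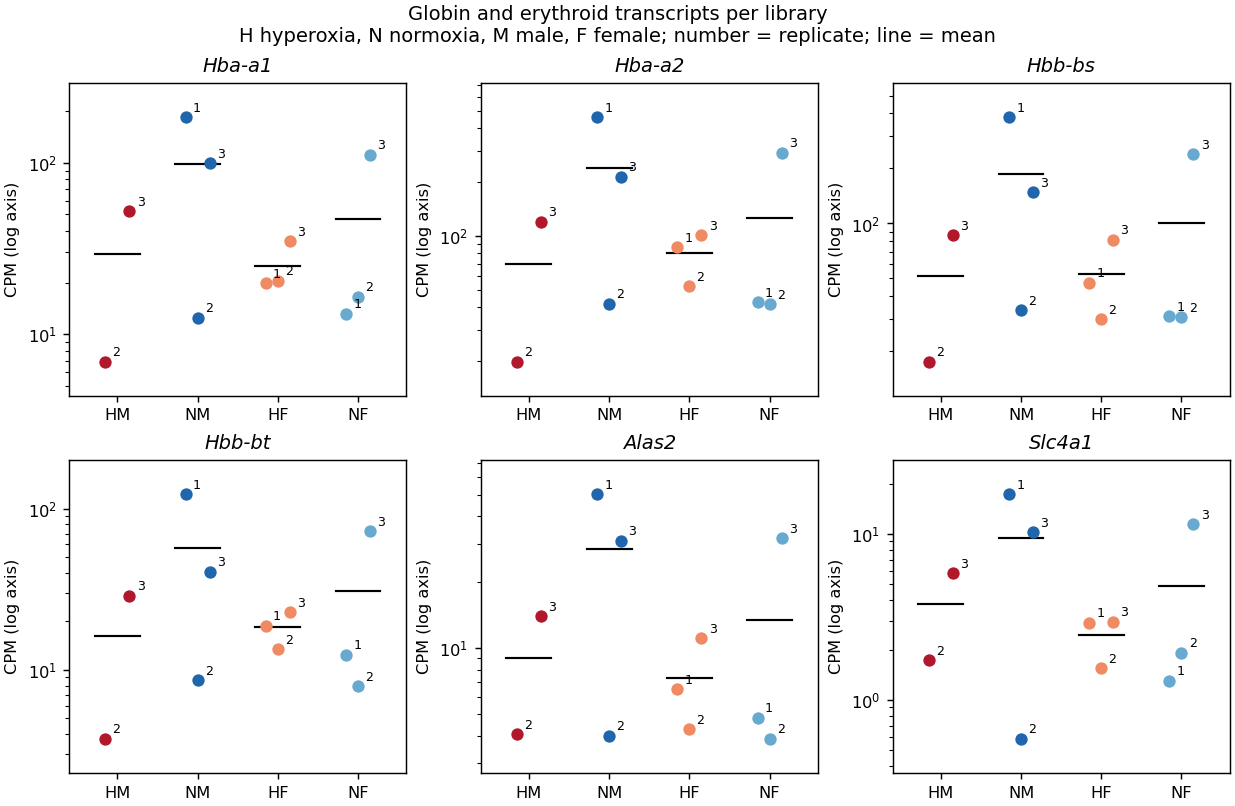
CPM (log axis) of each of the 6 genes in each library, by group (HM hyperoxia male, NM normoxia male, HF hyperoxia female, NF normoxia female). Points are libraries marked by replicate number and lines are group means; in every panel NM1, NF3 and NM3 are the highest points, and every pair of groups overlaps.

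Per length, with exon lengths from GENCODE M21, the mean level over the 11 libraries was 201 CPM per kb for Hba-a2 and 133 for Hbb-bs. It was 64.0 CPM per kb for Hba-a1, 45.5 for Hbb-bt, 6.26 for Alas2 and 1.07 for Slc4a1. This order held in 9 of 11 libraries, and in HF1 and NF1 Hba-a1 and Hbb-bt changed places. The order within each globin pair may depend on how reads of the near-identical coding parts were assigned. From the lowest to the highest library the levels spanned 23.2-fold for Hba-a2, 21.7-fold for Hbb-bs, 26.8-fold for Hba-a1, 32.7-fold for Hbb-bt, 13.0-fold for Alas2 and 29.6-fold for Slc4a1.

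The first comparison was hyperoxia against normoxia over both sexes, the question the exposure addresses. Fitted levels of all 6 genes were below normoxia in hyperoxia, but none passed the test, and the libraries of the oxygen groups overlapped for every gene. Mean levels for Hba-a2 were 76.1 ± 40.0 CPM (SD, n = 5) in hyperoxia and 182 ± 173 CPM (SD, n = 6) in normoxia. For Hbb-bs they were 52.6 ± 30.6 CPM (SD, n = 5) in hyperoxia and 144 ± 143 CPM (SD, n = 6) in normoxia. For Alas2 they were 8.00 ± 4.39 CPM in hyperoxia and 20.9 ± 19.5 CPM in normoxia, and for Slc4a1 2.99 ± 1.70 CPM in hyperoxia and 7.13 ± 6.86 CPM in normoxia (SD, same n). The SD in normoxia was close to its mean for each of these genes, so the difference of means is smaller than the spread between normoxia libraries.

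The test was edgeR's quasi-likelihood test fitted to all 19948 genes, with Benjamini-Hochberg adjustment and a threshold of 0.05. It called 0 of the 6 genes, where it called 0.707% of all genes tested, and 0.165% of all genes as lower in hyperoxia. As log2 fold change ± SE, Hba-a1 was at -1.33 ± 0.94, Hba-a2 at -1.21 ± 0.87, Hbb-bs at -1.38 ± 0.90 and Hbb-bt at -1.28 ± 0.94. Alas2 was at -1.26 ± 0.86 and Slc4a1 at -1.14 ± 0.91. The adjusted p of edgeR's test ran from 0.854 to 0.910, the lowest unadjusted p was 0.166, and 0 of the 6 had an unadjusted p under 0.05. DESeq2 also called 0, with a lowest unadjusted p of 0.0829. The median of the 6 values was -1.27, against -0.03 over all genes tested. All 6 lay below 0, as did 54.1% of all genes tested. The 6 genes share their libraries and are not independent measurements. The median SE of the 6 was 0.91 against 0.25 over all genes, larger than that of 90.4% of genes. Summing each globin pair gave -1.24 ± 0.88 for alpha-globin and -1.36 ± 0.90 for beta-globin, neither past the test. An exact permutation test within sex on log2(CPM + 1), with 200 arrangements and a smallest possible two-sided p of 0.005, gave p from 0.315 for Hbb-bs to 0.510 for Slc4a1.

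The ranges of the oxygen groups did not come apart for any gene, 0 of 6 over both sexes, 0 of 6 in males and 0 of 6 in females. Among all genes tested, groups without overlap were seen in 2.16% over both sexes, 17.1% in males and 10.2% in females. Single libraries set the size of the fitted differences. Without NF3 the values of the 6 genes over both sexes ran from -0.54 to -0.35, and without HM3 from -2.36 to -1.68.

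In males alone, hyperoxia minus normoxia was -1.75 ± 1.44 for Hba-a1, -1.77 ± 1.33 for Hba-a2, -1.85 ± 1.38 for Hbb-bs and -1.81 ± 1.44 for Hbb-bt (log2 fold change ± SE, n = 2 and 3). It was -1.65 ± 1.31 for Alas2 and -1.31 ± 1.37 for Slc4a1. EdgeR called 0 of 6, against 0.0401% of all genes in either direction and 0.0100% lower, with adjusted p of 0.937 for each, 0 unadjusted p under 0.05, and 0 calls by DESeq2. Both groups were split, since HM3 had 5.98 times the summed globin CPM of HM2, and the highest normoxia male library had 11.9 times that of the lowest. Without HM3 the male values ran as low as -3.91 (Hbb-bt), and without NM1 that of Hbb-bt was -0.67.

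In females, hyperoxia minus normoxia was -0.91 ± 1.22 for Hba-a1, -0.65 ± 1.12 for Hba-a2, -0.92 ± 1.17 for Hbb-bs and -0.75 ± 1.21 for Hbb-bt (log2 fold change ± SE, n = 3 each). It was -0.87 ± 1.13 for Alas2 and -0.97 ± 1.21 for Slc4a1. EdgeR called 0 of 6, against 0.0401% of all genes in either direction and 0.0251% lower, with adjusted p of 1 for each, 0 unadjusted p under 0.05, and 0 calls by DESeq2. The summed globin CPM was 176 ± 62.0 in hyperoxia females and 304 ± 356 in normoxia females (SD, n = 3 each), with NF3 at 715 and both other normoxia female libraries under 100. Without NF3 all 6 values turned positive, from 0.62 for Slc4a1 to 0.92 for Hba-a2.

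**Figure D2:**
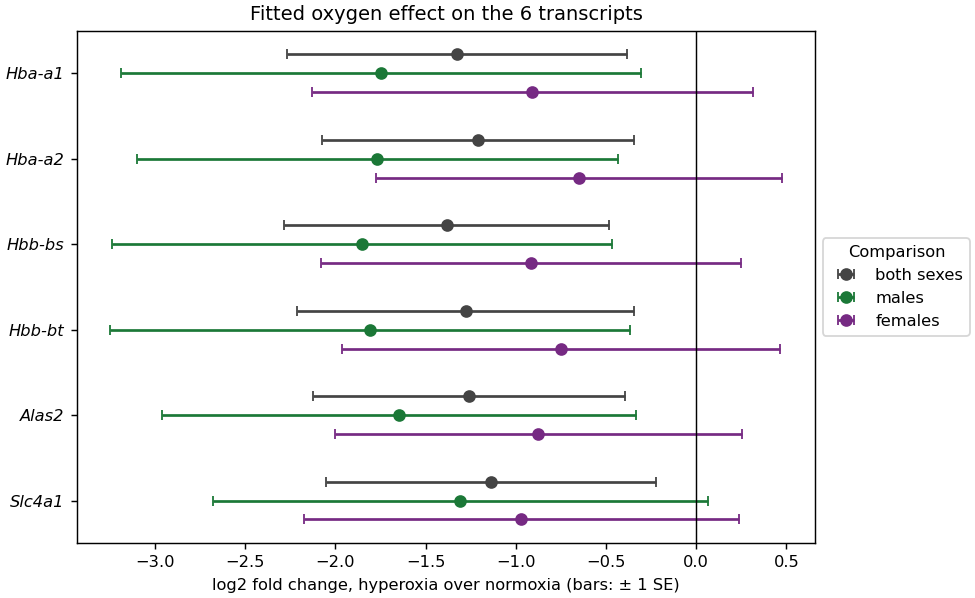
Log2 fold change of hyperoxia over normoxia for each gene, with bars of 1 SE, over both sexes, in males and in females. All points lie below 0, from -1.85 to -0.65, with SE from 0.86 to 1.44, and no gene passed the test in any of the 3 comparisons.

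The sexes were then compared, the question in the study's title. The female response minus the male response was 0.34 to 1.12 on the log2 scale over the 6 genes, with SE from 1.69 to 1.83. EdgeR called 0 of 6 for this difference, against 0% of all genes, with adjusted p of 1, 0 unadjusted p under 0.05 among the 6, and 0 calls among them by DESeq2. The sign turned for 4 of the 6 genes when 1 library was left out. Without NM1 the value was -0.051 for Hbb-bs, -0.11 for Hbb-bt and -0.40 for Slc4a1, and without HM2 it was -0.0036 for Hba-a1 and -0.30 for Slc4a1. That of Slc4a1 was also -0.12 without NF1 and -0.018 without NF2. Without HM3 it was as high as 3.17 (Hbb-bt), and without NF3 it was 2.64 for Hbb-bs, 2.40 for Alas2 and 1.93 for Slc4a1. Female minus male over both oxygen groups was -0.66 ± 0.91 for Hba-a1, -0.37 ± 0.84 for Hba-a2, -0.44 ± 0.86 for Hbb-bs and -0.36 ± 0.90 for Hbb-bt. For Alas2, whose gene is on the X chromosome, it was -0.69 ± 0.84, and for Slc4a1 -0.78 ± 0.89. EdgeR called 0 of 6, against 0.0251% of all genes in either direction and 0.0201% lower in females, with adjusted p from 0.994 to 0.998, 0 unadjusted p under 0.05, and 0 calls by DESeq2. Without HM3 the sign of this difference turned for the 4 globin genes, from 0.34 (Hbb-bs) to 0.70 (Hbb-bt). Without NM1 it turned for Hba-a2 (0.080), Hbb-bs (0.090) and Hbb-bt (0.24), and without NF3 the 6 values ran from -1.58 (Slc4a1) to -1.16 (Hba-a2). By group mean, normoxia males stood highest and normoxia females next for the 6 genes, and hyperoxia males and hyperoxia females came last in either order. For each gene, neighbouring groups in that order overlapped. By group median, normoxia females instead stood lowest for all 6 genes, since NF3 lay far above NF1 and NF2. For Hba-a2 the medians were 42.8 CPM in normoxia females, 70.1 in hyperoxia males, 86.7 in hyperoxia females and 214 in normoxia males.

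The proportions among the genes varied far less between libraries than their level. Alpha-globin took 55.7% (HM2) to 62.8% (HF2) of the 4 globin counts. Hbb-bs took 69.1% (HF2) to 82.4% (HM2) of the beta counts. Hba-a1 took 18.6% of the alpha counts in HF1 (95% Clopper-Pearson interval 17.24% to 19.96%) and 31.8% in NM3 (30.62% to 32.97%). The intervals cover counting error only, and these libraries differ by more than that error. Over oxygen groups the Hba-a1 share overlapped, at 18.6% to 30.2% in hyperoxia and 22.9% to 31.8% in normoxia.

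Alas2 stood at 36.8 to 84.4 counts per 1000 globin counts in hyperoxia and 40.0 to 61.3 in normoxia. The highest ratio was that of HM2, with 84.4 (95% exact Poisson interval 68.9 to 102 for the Alas2 count), and the next was NM3 with 61.3 (56.5 to 66.5). Slc4a1 stood at 12.3 to 36.1 counts per 1000 globin counts in hyperoxia and 6.03 to 20.4 in normoxia. HM2 was again the highest, with 36.1 (26.2 to 48.4), and NM2 the lowest, with 6.03 (3.30 to 10.1) from 14 counts. Thus HM2, the library with least globin, held more Alas2 and Slc4a1 relative to globin than any other library. Over the 11 libraries the pairwise Pearson correlation of log2 CPM among the 6 genes ran from 0.881 to 0.991, a description of libraries that differ in depth.

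**Figure D3:**
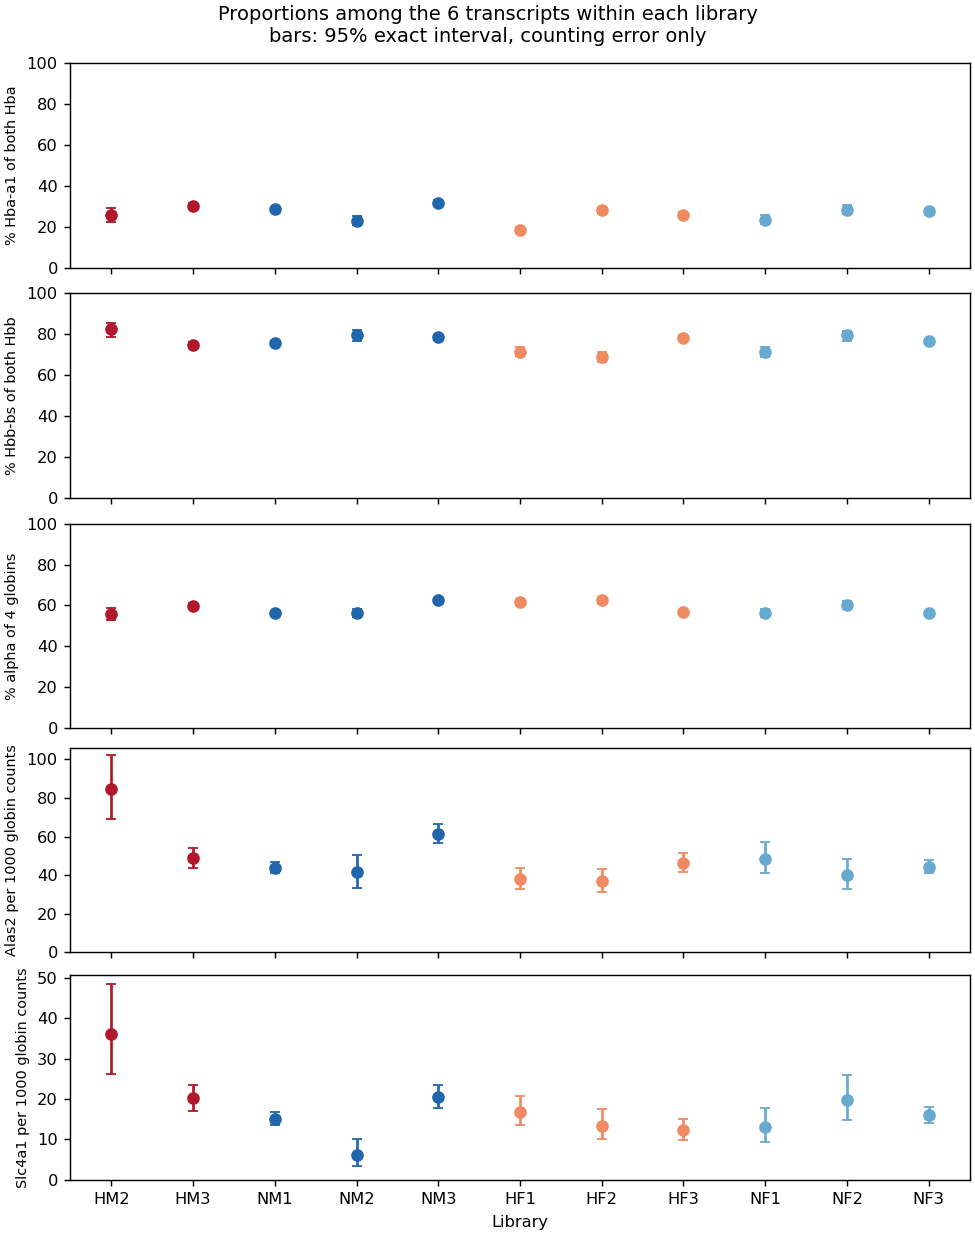
Percent of Hba-a1 in the alpha pair, of Hbb-bs in the beta pair and of alpha-globin in all globin counts, and Alas2 and Slc4a1 counts per 1000 globin counts, in each library, with 95% exact intervals for counting error only. Alpha-globin stays between 55.7% and 62.8%, while HM2 stands highest for both ratios to globin.

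Other globin genes were at or near 0. Of 7 listed, Hbb-bh0 and Hbb-bh1 had 0 counts in every library, which allows up to 0.0880 to 0.160 CPM. Hba-x, the embryonic alpha-type gene and the most abundant of the 7, reached 0.275 CPM in hyperoxia (HF3, 8 counts) and 0.464 CPM in normoxia (NM3, 9 counts). None of the 7 passed the expression filter, so none was tested.

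Of 28 listed genes of the red cell membrane, haemoglobin chaperone and red cell enzymes, 27 were matched by symbol and 21 passed the filter. The haemoglobin chaperone gene Ahsp had no match by symbol and was not analysed. Whether the count table holds it under an identifier without a symbol was not tested. Over both sexes 0 of the 21 were called in either direction, against 0.707% of all genes tested. Their median log2 fold change was -0.56, against -0.03 over all genes. Tent5c, which lengthens the poly(A) tails of mRNAs, followed the globins closely. It stood at 4.61 and 12.7 CPM in HM2 and HM3 and at 5.11, 6.04 and 5.84 in HF1 to HF3, against 29.9, 4.54 and 19.3 in NM1 to NM3 and 5.34, 5.62 and 24.7 in NF1 to NF3. NM1, NF3 and NM3 were its highest libraries and HM3 the next. Its hyperoxia minus normoxia value was -1.05 ± 0.62 (log2 fold change ± SE), not past the test.

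Sptb, a spectrin chain of the red cell skeleton, was at -0.57 ± 0.46. Bpgm, which makes the phosphate that lowers haemoglobin's affinity for oxygen, was at -0.23 ± 0.25 and Car2, a carbonic anhydrase, at -0.56 ± 0.35. Ank1, ankyrin of the membrane skeleton, was at -0.56 ± 0.16 and Aqp1, a water channel, at -0.41 ± 0.39. Other values were those of Epb41 (-0.02 ± 0.17), protein of the membrane skeleton, Prdx2 (-0.13 ± 0.22), a peroxidase, Ube2l6 (-0.11 ± 0.18), a conjugating enzyme, and Bnip3l (-0.27 ± 0.18), a mitophagy receptor. Gypc, a glycophorin, was at 0.70 ± 0.35 and Fam210b, a mitochondrial protein, at 0.22 ± 0.18.

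Of 10 erythroid transcription factors and receptors, 8 were tested, 1 rose and 0 fell over both sexes, with a median of 0.10. Of all genes tested, 0.707% were called in either direction and 0.165% as lower. The gene that rose was Nfe2, a leucine zipper factor of erythroid and megakaryocytic cells that myeloid cells also express (0.94 ± 0.16, edgeR quasi-likelihood, Benjamini-Hochberg adjusted p = 0.0102). It stood at 29.6 and 20.6 CPM in HM2 and HM3 and at 20.5, 25.4 and 17.7 in HF1 to HF3, against 10.8, 11.4 and 9.03 in NM1 to NM3 and 16.4, 12.8 and 12.2 in NF1 to NF3. Every hyperoxia library was above every normoxia library, where 2.16% of all genes tested had no overlap in either direction. HM2, the lowest for globin, was the highest for Nfe2. Ermap, of the red cell list, also had no overlap, at 0.867 to 1.56 CPM in hyperoxia and 0.427 to 0.859 CPM in normoxia. Zfpm1, a cofactor of GATA factors, was at 0.19 ± 0.19, Epor, the erythropoietin receptor, at -0.45 ± 0.42, and Tfrc, the transferrin receptor, at -0.42 ± 0.17, none past the test. The defining erythroid factors were near the floor of 3 counts. Gata1 had 1 to 8 counts in hyperoxia and 0 to 5 in normoxia, and Klf1 had 2 to 10 in hyperoxia and 2 to 12 in normoxia.

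Of 10 other haem synthesis genes all were tested, and 0 were called in either direction, against 0.707% of all genes. Their median was -0.10. Alas1, the housekeeping form of the first enzyme, was the most abundant of them. It stood at 279 and 269 CPM in HM2 and HM3 and at 295, 201 and 197 in HF1 to HF3, against 327, 301 and 188 in NM1 to NM3 and 293, 353 and 279 in NF1 to NF3. Its libraries kept within a 1.88-fold span, where Alas2 spanned 13.0-fold. Of 12 genes of haem and haemoglobin clearance, 0 were called in either direction, against the same 0.707% of all genes, with a median of 0.04. Fth1, ferritin heavy chain, was the most abundant of these, at 2894 to 3568 CPM in hyperoxia and 2614 to 4603 CPM in normoxia.

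Likeness to the globins was measured over the 11 libraries as the Pearson correlation of log2 CPM with the log2 of the summed globin CPM. Among the listed genes it was 0.934 for Tent5c (Spearman rho 0.909), 0.904 for Epb42 (0.955), 0.895 for Sptb (0.927) and 0.886 for Bpgm (0.855). Slc25a37, the mitochondrial iron importer mitoferrin, was at 0.872 (0.882), the highest of the haem synthesis genes. The others of that list ran from -0.648 (Cpox) to 0.491 (Urod). Epb42 had 1 to 39 counts per library. Other tested genes of the red cell list with a mean under 1 CPM ran from -0.29 (Ermap) to 0.874 (Tmod1). Epb42 and Slc25a37 were named after their values were seen. By contrast the correlation was -0.117 for Alas1, 0.293 for Tfrc, -0.17 for Epor, -0.595 for Nfe2 and -0.697 for Zfpm1. Trim10 was the highest of the tested erythroid factors and receptors, at 0.794. The genes of the red cell list did not all follow the globins. Of the others named above, Car2 was at 0.792, Bnip3l at 0.634, Prdx2 at 0.584 and Ube2l6 at 0.518. Aqp1 was at 0.244, Ank1 at 0.0131, Fam210b at -0.0375, Gypc at -0.239 and Epb41 at -0.257. Outside the lists, the 10 genes most alike among 12616 were Ms4a1 (0.901, rho 0.891), Isg20 (0.892, rho 0.845), Gm47467 (0.889, rho 0.945), Coq6 (0.888, rho 0.900) and Gorab (0.881, rho 0.755). They also were Tatdn1 (0.879, rho 0.836), N6amt1 (0.876, rho 0.818), 1810032O08Rik (0.875, rho 0.836), Med31 (0.875, rho 0.773) and Cetn2 (0.870, rho 0.782). They were picked as the highest of many and most spanned a narrow range, such as 21.7 to 38.9 CPM for Cetn2. Without NM1 and NF3, the libraries farthest from the median globin level, the correlation was 0.839 for Tent5c, 0.880 for Epb42, 0.811 for Sptb, 0.740 for Bpgm and 0.882 for Slc25a37. For the 10 genes outside the lists it then ran from 0.649 (Cetn2) to 0.900 (Ms4a1), so the listed and the other genes overlapped.

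**Figure D4:**
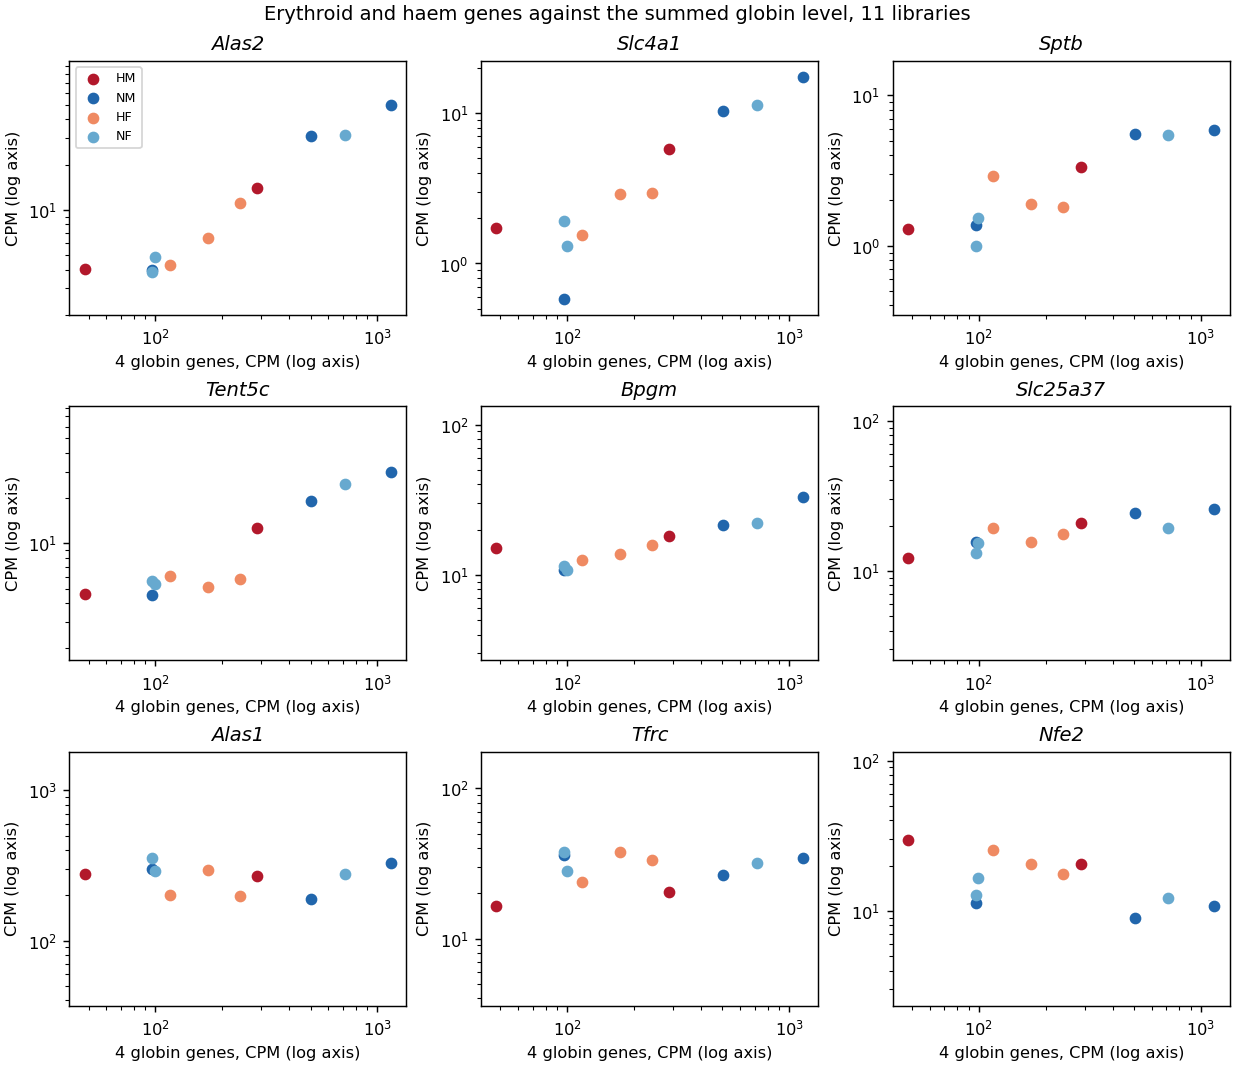
CPM of 9 erythroid or haem genes against the summed CPM of the 4 globin genes in the 11 libraries, both on log axes, with the same span on each vertical axis. Alas2, Slc4a1, Sptb and Tent5c climb with the globins, Bpgm and Slc25a37 climb over a narrower range, Alas1 and Tfrc show no such order, and Nfe2 is highest in HM2, at the low end of globin.

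Markers of other cells were listed beside the erythroid genes. Platelet markers summed to 4.44 to 13.3 CPM in hyperoxia and 2.67 to 12.3 CPM in normoxia, and 0 to 4 of the 12 were at 0 in a library. Neutrophil markers summed to 32.4 to 39.0 CPM in hyperoxia and 33.4 to 63.2 CPM in normoxia, with 1 to 4 of 12 at 0, among them Ly6g in every library. The most abundant in these lists were Pf4 (log2 fold change 0.76 ± 0.59) and Csf3r (-1.02 ± 0.26). Csf3r alone held 10.2 to 19.0 CPM of the neutrophil sum in hyperoxia and 17.7 to 50.3 CPM in normoxia. Of the 9 neutrophil markers tested, 5 lay below 0 and 4 above it, among them S100a8 (0.78 ± 0.26). Endothelial markers summed to 18.2 to 52.7 CPM in hyperoxia and 28.5 to 90.5 CPM in normoxia, with none of 8 at 0. In NM1, NM3 and NF3 the endothelial sum was 47.8, 90.5 and 38.1 CPM, and NF1, with little globin, had 54.5 CPM. All 8 endothelial values lay below 0 over both sexes (median -0.71), as did 54.1% of all genes tested. Cdh5, a junction protein and the most abundant of the endothelial markers, was at -0.74 ± 0.38. None of the platelet, neutrophil and endothelial genes passed the test, where 0.707% of all genes tested did. The libraries also differed in genes detected, with 33158 to 35530 in HF2, HF3, NM3 and NF3 and 26856 to 30173 in the others. NM1, the library richest in globin, had 26856, the fewest. Genes with symbols of olfactory and vomeronasal receptors summed to 138.6, 153.1, 277.5 and 174.8 CPM in HF2, HF3, NM3 and NF3. In the other libraries they summed to 52.4 to 81.8 CPM. The most abundant gene of a library took 17.5%, 20.8% and 18.01% of its counts in NM1, NM3 and NF3, the libraries with most globin, and 5.27% to 13.2% in the others. These 3 libraries also had the lowest total counts, at 21572925, 18087948 and 24146144. The part of these differences in the globin values was not tested. Of the alveolar macrophage markers, 2 of 12 fell, where 0.165% of all genes tested were called lower. They were the fatty acid carrier gene Fabp4 (-1.53 ± 0.31) and the keratin gene Krt79 (-1.32 ± 0.24). Cd9, the most abundant of these markers, was at -0.43 ± 0.20. The adjusted p of edgeR's quasi-likelihood test were 0.0377 for Fabp4 and 0.0144 for Krt79.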

How the data were processed

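RNA-seq counts of 11 libraries were used as deposited. The deposited values are whole-number counts per Ensembl gene, not normalized. The submitters' processing notes name STAR 2.7.9 and Salmon 1.10.1, with Trim Galore 0.6.7, and DESeq2 1.42 in R 4.3.2, on build mm39. Not given in the sources used here are their roles, the annotation, the use of strand and of the unique molecular identifiers, and the treatment of reads matching several genes. Per the labels' protocols, identifiers and adapter were trimmed, and some libraries were freed of fragments under 250 bp and sequenced again.

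Symbols were matched by Ensembl identifier for 51884 of 57180 genes (90.7%). In R 4.3.3, edgeR 4.0.16 kept 19948 genes (filterByExpr with a minimum count of 10 and a total of 15), scaled libraries by TMM and fitted 1 mean per group with the robust quasi-likelihood method, checked on simulated data. The simulation gave every gene the same spread setting, so it does not cover genes that vary between libraries as the 6 did. Benjamini-Hochberg adjustment ran over all genes tested. Standard errors were derived from the F-test. Log2 CPM used a prior count of 2. DESeq2 1.42.0 was an alternative. Replicates of a group differed by a chi-square per gene of at least 18.1, so none was counted as a repeat deposit. The 6 genes and 9 further lists were chosen with earlier results of these data known, and 1 of the 111 listed genes was not analysed. Named genes were the 6, list members that passed the test, the most abundant of each list, members of the erythroid lists at a mean of at least 1 CPM, and the 10 genes most alike. Some members of these lists are not reported here. Gata1, Klf1, Epb42, Slc25a37, Ly6g, Hbb-bh0 and Hbb-bh1 were named after their values were seen.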

Additional observations from a re-analysis of the deposited data

How the results depend on the processing

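In each of the 5 comparisons, 0 of the 6 genes were called as reported, and likewise with DESeq2, RLE size factors, no low-count filter, the fit without robust estimation, globins left out of the library sizes, and each library left out in turn. The same held without NM3, NF3, HF2 and HF3 together, and neither pair sum passed, an alternative chosen after seeing the data. Over both sexes the direction was negative throughout. In females it turned without NM3, NF3, HF2 and HF3 together, giving 0.41 (Hba-a1), 1.03 (Hba-a2), 0.62 (Hbb-bs), 0.89 (Hbb-bt), 0.58 (Alas2) and 0.86 (Slc4a1), where HF1 alone stands for hyperoxia females and takes its spread from the remaining groups. With 1 library left out, female values ran from -1.35 to 0.76 (Hba-a1), -1.10 to 0.92 (Hba-a2), -1.38 to 0.78 (Hbb-bs), -1.24 to 0.85 (Hbb-bt), -1.34 to 0.75 (Alas2), -1.43 to 0.62 (Slc4a1), the positive ones being those without NF3. The female minus male response then ran from -0.0036 to 2.91 (Hba-a1), -0.051 to 2.64 (Hbb-bs), -0.11 to 3.17 (Hbb-bt), -0.40 to 1.93 (Slc4a1). Female minus male ran from -1.49 to 0.39 (Hba-a1), -1.16 to 0.54 (Hba-a2), -1.29 to 0.34 (Hbb-bs), -1.17 to 0.70 (Hbb-bt). The cause was not tested.

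Same-numbered libraries of different groups correlated above 0.1 in 7 of 15 pairs, and 5 of 11 libraries correlated best with their own number, so the numbers were not taken as pairs. With the replicate block, 0 of the 6 genes were called in each comparison, and the values over both sexes ran from -1.17 (Hbb-bs) to -0.79 (Slc4a1). Counts over all genes moved more. Over both sexes 141 genes were called, against 448 with DESeq2, 302 without the filter, 256 with the block, 23 without the 4 libraries, and 36 to 195 with 1 library left out. In males 8 became 89, 83, 21, 16 and 0 to 19 under these settings, and in females 8 became 95, 96, 23, 2 and 0 to 24. For the female minus male response 0 became 3, 6, 0, 1 and 0 to 1 (and 1 without robust estimation), and for female minus male 5 became 35, 62, 9, 6 and 5 to 14. Depth limits Slc4a1 most, with 14 counts in NM2.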

Other observations

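Of the 12 genes of haem clearance, 3 were highest in HF2, namely Spic, Cd163 and Slc40a1, and 2 were lowest there, the biliverdin reductase genes Blvra (88.7 CPM) and Blvrb (19.8 CPM). Spic, a transcription factor of red pulp macrophages that haem induces, had 128 counts (3.75 CPM) in HF2 and 29 counts (0.996 CPM) in HF3. It had 0.236 and 0.225 CPM in HM2 and HM3, 0 counts in HF1, and 0.0431 to 0.213 CPM in normoxia. Cd163, the scavenger receptor for haemoglobin bound to haptoglobin, stood at 4.23 CPM in HF2 and 2.88 CPM in HM2, at 0.630 to 1.68 CPM in the other hyperoxia libraries, and at 0.285 to 1.05 CPM in normoxia. Slc40a1, the iron exporter ferroportin, was at 25.8 CPM in HF2, 11.4 to 16.2 CPM in the other hyperoxia libraries and 6.90 to 11.1 CPM in normoxia. For Slc40a1 every hyperoxia library was above every normoxia library, where 2.16% of all genes tested had no overlap in either direction. HF2 held 116 CPM of summed globin, below the median over the libraries. Any relation of these genes to the globin level was not tested. Hmox1, which breaks down haem, was highest in a normoxia library, with 71.0 to 192 CPM in hyperoxia and 108 to 377 CPM in normoxia, the highest being NM2, which also held little globin. None of Spic, Cd163, Slc40a1 and Hmox1 passed the test over both sexes, with log2 fold changes of 2.18 ± 0.87 (Spic), 1.40 ± 0.52 (Cd163), 0.95 ± 0.21 (Slc40a1) and -0.43 ± 0.32 (Hmox1). The adjusted p of edgeR's quasi-likelihood test was 0.0504 for Slc40a1, just above the threshold, 0.376 for Cd163, 0.438 for Spic and 0.882 for Hmox1. These genes were named after their values were seen.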
